A study of Mus musculus with 4 samples.

Results

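The aldehyde dehydrogenases of the ALDH1, ALDH2 and ALDH3 families were followed in mouse pancreatic cancer cells treated with halofuginone. The 10 genes were Aldh1a1, Aldh1a2, Aldh1a3, Aldh1a7, Aldh1b1, Aldh2, Aldh3a1, Aldh3a2, Aldh3b1 and Aldh3b2, chosen by gene name, out of 36918 gene names on the array. They were read by 18 probes, and 9 of the 10 genes were tested among 19093 tested genes. The groups were K6 and K5 cells given 100 nM halofuginone for 24 h, and K6 and K5 cells given DMSO, the solvent, as control. Each line gave 1 array per condition, so 2 halofuginone arrays stood against 2 control arrays. Both lines are labelled as mouse cancer cells of pancreatic cancer from the C57BL/6 strain, with no genotype stated. The title of the series names Aldh3a1 and the transcription factor Nrf2.

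Aldehyde dehydrogenases oxidise aldehydes to carboxylic acids with NAD or NADP. ALDH1A enzymes turn retinaldehyde into retinoic acid, the ligand of the retinoic acid receptors, and their activity is widely used to mark stem-like tumour cells. ALDH2 is the mitochondrial enzyme that clears acetaldehyde, and ALDH3 enzymes oxidise medium- and long-chain or aromatic aldehydes, including products of lipid peroxidation. Halofuginone is a plant alkaloid derivative that inhibits prolyl-tRNA synthetase.

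The promoters of Aldh1a1 and Aldh1a7 are shown because these neighbouring genes on chromosome 19 were both strongly lower with halofuginone. The sequences are from RefSeq (GRCm38.p6), which held 7 promoter windows for 6 of the 10 genes. Each line gives the 250 bases before a transcription start. Aldh1a1 lies at chr19:20601718-20601967 on the + strand and Aldh1a7 at chr19:20727557-20727806 on the - strand, with their longest shared run of 65 bases in capitals. A second Aldh1a1 start in the same table is not shown, and the array does not tell which start was used.
Aldh1a1: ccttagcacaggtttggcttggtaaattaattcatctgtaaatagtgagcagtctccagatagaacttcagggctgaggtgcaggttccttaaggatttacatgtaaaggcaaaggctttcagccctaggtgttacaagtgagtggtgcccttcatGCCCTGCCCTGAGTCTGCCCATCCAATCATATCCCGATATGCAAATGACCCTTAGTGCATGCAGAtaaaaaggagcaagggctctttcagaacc
Aldh1a7: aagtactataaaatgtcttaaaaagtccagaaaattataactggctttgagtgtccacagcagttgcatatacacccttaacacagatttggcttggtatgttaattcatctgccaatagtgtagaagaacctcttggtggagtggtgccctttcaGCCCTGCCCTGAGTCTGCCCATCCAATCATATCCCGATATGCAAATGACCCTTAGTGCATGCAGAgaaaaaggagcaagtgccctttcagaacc

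The shared run covered positions -94 to -30 from each start. Of 224 aligned bases 213 were identical (95.1%), which is 71% of the 300-base window, as the rest was left unaligned. Of the other pairs of promoters of these genes, none shared a run of more than 10 bases. A set of 3 short motifs was searched on both strands of the 300-base windows. Aldh1a3, Aldh2, Aldh3a1 and Aldh3b2 had no window, so their promoters were not searched. The antioxidant response element core TGACNNNGC, read by NRF2 with small MAF proteins, was in 12.4% of all 32851 promoters and in 1 of these windows, that of Aldh1a2. The C/EBP-ATF core TGATGNAA was in 3.97% of all promoters and in none of these windows. The xenobiotic response element core GCGTG was in 32.4% of all promoters and in those of Aldh1a2 and Aldh3a2. A match of letters does not show that a factor binds there.

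Parts of 3 probes are shown because the neighbouring genes Aldh3a1 and Aldh3a2 on chromosome 11 read differently. Each line gives 30 of the 60 bases of a probe, with the poly(A) signal hexamer AATAAA in capitals where the probe holds it. The probe of Aldh3a1 lies at chr11:61031857-61031916 on the + strand of mm9. The brightest probe of Aldh3a2 lies at chr11:61058399-61058458 on the - strand. The distal probe of Aldh3a2 lies at chr11:61036919-61036978 on the - strand.
Aldh3a1: agcacagagaccAATAAAaaagcctctaaa
Aldh3a2 brightest probe: aattataaatcacagcttctagctaggcca
Aldh3a2 distal probe: agaaatagattgAATAAAgatgttgggctt
The distal probe was designed on another transcript model and lies 21420 bases from the brightest probe and 5002 bases from that of Aldh3a1. The hexamer was in 5 of the 18 probes, and in 9.77% of all probes. No stretch of more than 9 bases was shared by probes of different genes among the 18, including those of Aldh1a1 and Aldh1a7. Probes were compared only with each other and not with transcripts, so this cannot show whether a probe also reads a related gene.

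The share of probes well above background was 53.1% to 54% with halofuginone and 47.2% to 48.6% in control cells. Epithelial markers were well above background on every array (10 of 10), with a summed scaled signal of 968 to 977 on halofuginone arrays and 704 to 917 on control arrays, and of these 10 genes Muc1 fell (log2 change -3.40, limma adjusted p = 0.036). Immune markers were well above background for 6 of 7 genes on every array, and Adgre1 was not. Their summed signal was 10.4 to 14.1 on halofuginone arrays and 28.8 to 31.7 on control arrays, lower with halofuginone in both lines. Cd14, the brightest of them on the control arrays, had log2 changes of -4.03 in K6 and -2.73 in K5. Cd14 and Cd68 were called lower, while Ptprc read higher with halofuginone, by 0.17 in K6 and 1.04 in K5. Fibroblast and stellate markers summed to 9.35 to 11.8 on halofuginone arrays and 15.9 to 17.9 on control arrays. Of these 8 genes, 1 to 4 were well above background on each array, and Des, Lum and Pdgfrb on none. Most of the sum was Acta2, which was not called (log2 change -0.70, limma adjusted p = 0.15). In K5, Col1a2 read lower and Pdgfra higher with halofuginone, and both were dim in K6. Acinar markers summed to 0.459 to 0.75 on halofuginone arrays and 2.61 to 3.67 on control arrays, with Cela1 called lower and Cpa1, Prss2 and Ptf1a dim throughout. Endothelial markers summed to 0.122 to 0.449 on halofuginone arrays and 0.0692 to 0.113 on control arrays, with Kdr called higher and Cdh5 dim throughout. Endocrine markers summed to 0.104 to 0.122 on halofuginone arrays and 0.105 to 0.107 on control arrays. The part of these marker shifts in the results was not tested, and fewer cells of a type cannot be told apart from less RNA per cell in these bulk samples.

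Signals below are processed array signals, and folds were computed after scaling each array to its 75th percentile. The test was limma over all tested genes with the line as a block and Benjamini-Hochberg adjustment at 0.05. It rests on 1 residual degree of freedom, the difference between the changes in the 2 lines, moderated by a prior of 2.97 degrees of freedom from all genes. Its p-values and SEs thus measure how unequal the 2 lines' changes were, and not a spread between replicates. Nothing says whether the arrays came from separate cultures. Within 1 line there was no replicate and no test. An exact permutation test of 2 arrays against 2 cannot go below p = 0.333.

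Aldh3a1, Aldh3b1, Aldh1a1 and Aldh1a7 fell with halofuginone, and no member rose past the threshold. These were 4 of 9 tested members, where 5.08% of all tested genes were called lower and 3.88% higher. The 4 genes were at least 2-fold lower in each line, which held for 9.62% of all tested genes. None was at least 2-fold higher in both (0 of 9, against 8.59%), and none moved at least 2-fold in opposite directions (0 of 9, against 0.864%). The median change of the 9 members was -1.58 on the log2 scale, and that of all tested genes was 0.01. That median is the value of Aldh1b1, which was dim on both K6 arrays, and with dim values raised to a common limit the median of the members was -0.95 and that of all tested genes 0. All 4 calls ended under 4 of the other settings tried, among them the fit without the line as a block.

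**Figure D1:**
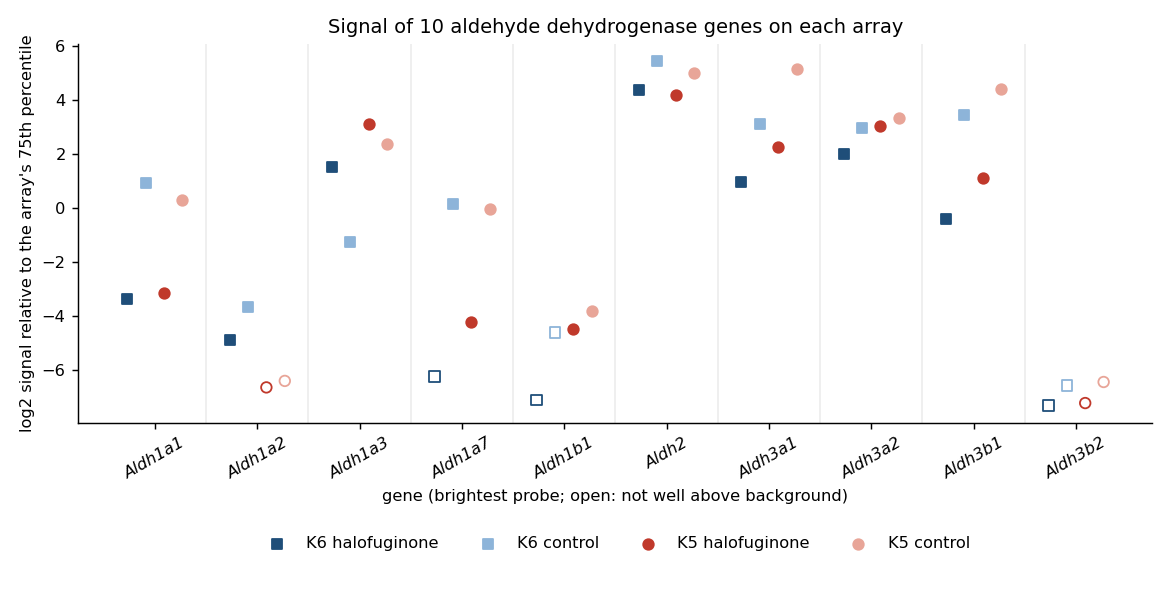
Scaled log2 signal (vertical axis, relative to the 75th percentile of each array) of the brightest probe of each of the 10 genes on the 4 arrays. Open symbols were not well above background. For Aldh1a1, Aldh1a7, Aldh3a1 and Aldh3b1 both halofuginone arrays lie below both control arrays, while Aldh1a3 is higher with halofuginone within each line.

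Aldh3a1, a cytosolic enzyme of aromatic and medium-chain aldehydes abundant in cornea and stomach, read 1580 in K6 and 4200 in K5 with halofuginone, against 7730 in K6 and 24200 in K5 control cells. Both halofuginone arrays lay below both control arrays. The gene averaged 1.59 ± 0.93 with halofuginone and 4.12 ± 1.4 in control cells on the scaled log2 scale (SD, n = 2 each). This SD, like those below, is the spread between 1 K6 and 1 K5 array, and not between replicates of a line. It was 5.78-fold lower (log2 change -2.53, SE 0.31, limma adjusted p = 0.040), by 4.54-fold in K6 and 7.36-fold in K5. Of all tested genes, 588 had a lower change.

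Aldh3b1, a membrane-bound enzyme of long-chain and lipid-derived aldehydes, read 627 in K6 and 1880 in K5 with halofuginone, against 9570 in K6 and 14700 in K5 control cells. The groups did not overlap. Its scaled signal averaged 0.34 ± 1.1 with halofuginone and 3.92 ± 0.7 in control cells (SD, n = 2 each). The fall was 11.9-fold (log2 change -3.57, SE 0.28, limma adjusted p = 0.036), with 14.2-fold in K6 and 10-fold in K5.

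Aldh3a2, the microsomal fatty aldehyde dehydrogenase, did not pass the test. Its brightest probe read 3300 in K6 and 7290 in K5 with halofuginone, against 6990 in K6 and 6910 in K5 control cells. After scaling, the log2 change was -0.63 (SE 0.31, limma adjusted p = 0.24), and it was -0.98 in K6 and -0.27 in K5. A second probe of the gene gave -0.62 in K6 and -0.11 in K5. The distal probe read 152 in K6 and 6.53 in K5 with halofuginone, against 10.4 in K6 and 9 in K5 control cells, and only the K6 halofuginone array was well above background. There it was at least 3.5-fold higher than in K6 control cells. Such bounds set the bright array against the lowest signal that was well above background on the dim array, or the dim probe's own signal where that was higher. Aldh3b2, a gene close to Aldh3b1 on chromosome 19, was dim on all 4 arrays, with signals of 5.2 in K6 and 5.87 in K5 with halofuginone, against 9.32 in K6 and 7.9 in K5 control cells. It was not tested.

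Aldh1a1, a cytosolic retinaldehyde dehydrogenase, read 80 in K6 and 99.6 in K5 with halofuginone, against 1690 in K6 and 838 in K5 control cells. The groups did not overlap, and all 4 arrays were well above background. The scaled signal averaged -3.26 ± 0.16 with halofuginone and 0.60 ± 0.46 in control cells (SD, n = 2 each). Aldh1a1 was 14.5-fold lower (log2 change -3.86, SE 0.34, limma adjusted p = 0.036), with a log2 change of -4.29 in K6 and -3.43 in K5. Of all tested genes, 159 had a lower change.

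Aldh1a7, a rodent relative of Aldh1a1 with little retinaldehyde activity, read 10.9 in K6 and 47.7 in K5 with halofuginone, against 989 in K6 and 679 in K5 control cells. The K6 halofuginone array was not well above background, so the fall in K6 was at least 35.8-fold, and in K5 it was 18.2-fold. The fitted log2 change was -5.29 (SE 0.61, limma adjusted p = 0.039), which uses the dim K6 signal as read. With the dim values raised to a common limit the change was -4.23 and the adjusted p was 0.11. The probes of Aldh1a7 and Aldh1a1 lie 49.7 kb apart in mm9, and whether either also reads the other gene was not tested.

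Aldh1a3, a retinaldehyde dehydrogenase of epithelia, was the member whose signal was higher with halofuginone in each line, but it did not pass the test. Its brightest probe read 2390 in K6 and 7630 in K5 with halofuginone, against 368 in K6 and 3550 in K5 control cells. The groups overlapped, because K5 control cells lay above K6 halofuginone cells. The change was 6.98-fold in K6 and 1.69-fold in K5, with a fitted log2 change of 1.78 (SE 0.57, limma adjusted p = 0.12). A second probe read 83.3 in K6 and 413 in K5 with halofuginone, against 26.3 in K6, where it was not well above background, and 139 in K5 control cells. In K6 that was a rise of at least 1.91-fold, and in K5 one of 2.34-fold. All 4 signals of the third probe were dim. Aldh1a3 passed the threshold with normexp background correction (adjusted p = 0.0053) and when genes had to be well above background on all arrays (adjusted p = 0.039).

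Aldh1a2, a retinaldehyde dehydrogenase of the embryo, was well above background in K6 only. It read 28 in K6 and 8.78 in K5 with halofuginone, against 69.2 in K6 and 8.12 in K5 control cells, and it was 2.3-fold lower in K6. The limma adjusted p was 0.23. Aldh1b1, a mitochondrial enzyme of progenitor cells, was well above background in K5 only. It read 5.99 in K6 and 39.4 in K5 with halofuginone, against 36.3 in K6 and 49 in K5 control cells, and it was 1.59-fold lower in K5 (adjusted p over both lines 0.13). The lowest scaled log2 signal well above background was -4.92 on the K5 halofuginone array and -4.17 on the K5 control array. Aldh1b1 read -4.49 and -3.82 there, near these unequal limits. With dim values raised to a common limit, the change over both lines was -0.175 for Aldh1b1 and -0.243 for Aldh1a2 (limma adjusted p = 0.59 and 0.51).

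Aldh2 had 4 probes, and each read lower with halofuginone in both lines after scaling, the dimmest of them without a K5 control signal well above background. The brightest read 17300 in K6 and 15800 in K5 with halofuginone, against 38500 in K6 and 22300 in K5 control cells, so the groups did not overlap. It was 2.07-fold lower in K6 and 1.8-fold lower in K5 (log2 change -0.95, SE 0.26, limma adjusted p = 0.096), which misses the threshold. The 3 bright probes had changes of -0.99 to -1.05 in K6 and -0.68 to -0.96 in K5. Both halofuginone arrays lay below both control arrays in 5 of the 9 tested members, and in 28.6% of all tested genes. The reverse order held for 0 of the 9 and for 30% of all tested genes.

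**Figure D2:**
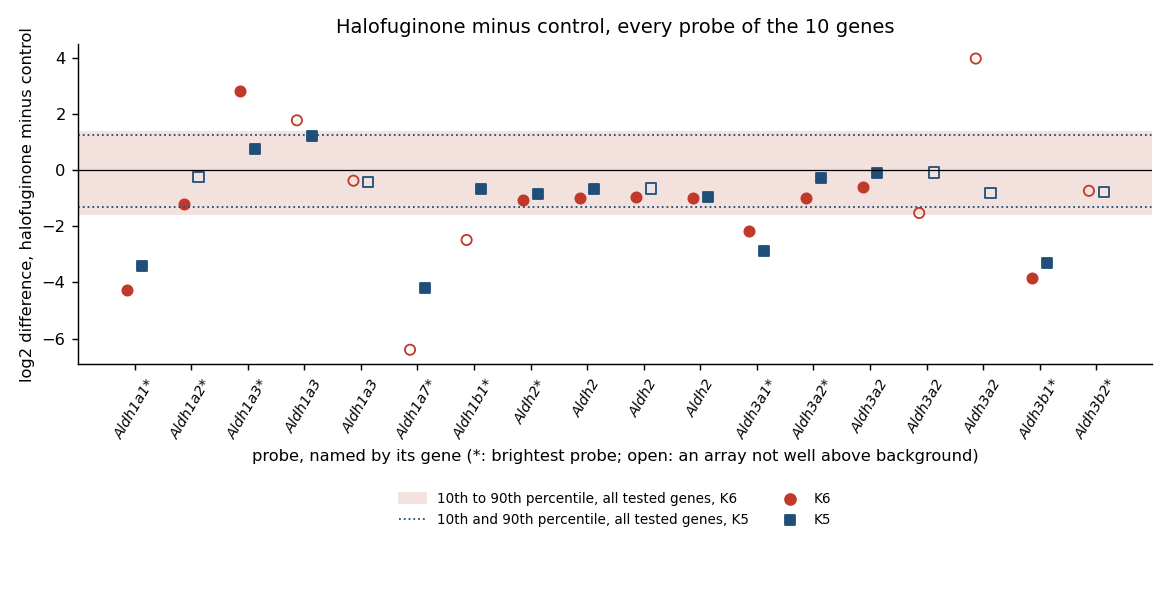
Log2 difference, halofuginone minus control, in K6 and in K5 for each of the 18 probes, named by gene. The band and the dotted lines span the 10th to the 90th percentile of all tested genes (-1.56 to 1.36 in K6 and -1.32 to 1.26 in K5), and open symbols have an array that was not well above background. The probes of Aldh1a1, Aldh1a7, Aldh3a1 and Aldh3b1 lie below both ranges in both lines.

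Within K6, 6 of the 9 tested members were at least 2-fold lower with halofuginone (16.4% of all tested genes) and 1 was at least 2-fold higher (16.4%). Within K5, 4 were at least 2-fold lower (14.9%) and 0 higher (14.1%). A change counted only where the brighter of the 2 arrays was well above background, and a dim array entered as read. These are counts of values with 1 array per condition, and the difference between the lines was not tested.

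Between the lines, no member differed past the threshold in the same limma fit (0.0576% of all tested genes were called higher in K6 and 0.115% lower). At an unadjusted limma p under 0.05, 5 of the 9 did, and 15.5% of all tested genes. They were Aldh1a2, Aldh1a3, Aldh1b1, Aldh3a1 and Aldh3b1. Aldh1a2 was dim on both K5 arrays and Aldh1b1 on both K6 arrays, and these signals entered as read. With dim values raised to a common limit, the differences of these 2 genes were 0.243 and -0.175. The count was then 3 members, and 2500 of 19093 tested genes. Aldh1a3 was the furthest from 0, with a K6 minus K5 log2 difference of -2.61 (SE 0.57, adjusted p = 0.19), which was 2.99-fold lower in K6 with halofuginone and 12.4-fold lower in K6 control cells. Aldh3a1 had a difference of -1.66 (adjusted p = 0.15), at 2.49-fold lower in K6 with halofuginone and 4.03-fold in control cells. Aldh3b1 had -1.24 (adjusted p = 0.20). Aldh1a2 was at least 1.4-fold higher in K6 than in K5 control cells (adjusted p over both conditions 0.12). Aldh1a1 and Aldh2 had differences of 0.21 and 0.32, with adjusted p of 0.78 and 0.59.

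**Figure D3:**
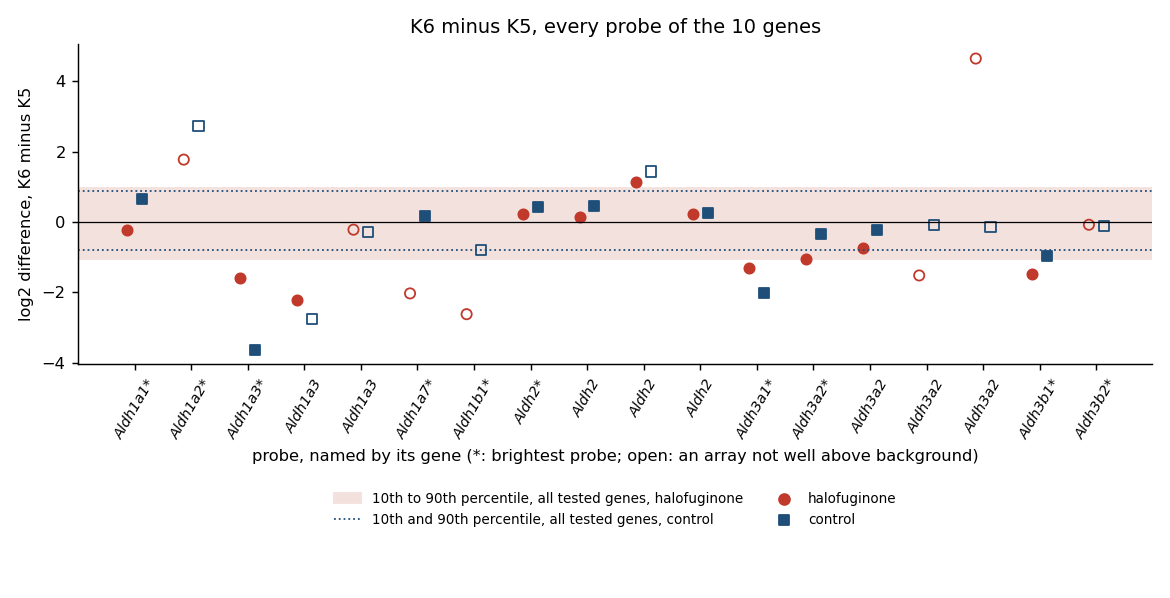
Log2 difference, K6 minus K5, with halofuginone and in control cells for each of the 18 probes. The band and the dotted lines span the 10th to the 90th percentile of all tested genes, and open symbols have an array that was not well above background. Both readable probes of Aldh1a3 and the probes of Aldh3a1 and Aldh3b1 lie below the range in both conditions.

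Of 11 other aldehyde dehydrogenases, 10 were tested, 2 rose and 2 fell (3.88% and 5.08% of all tested genes). Their median change was -1.25. Aldh1l2, the mitochondrial 10-formyltetrahydrofolate dehydrogenase, read 1550 in K6 and 2280 in K5 with halofuginone, against 105 in K6 and 65.2 in K5 control cells, and rose by 20.9-fold (limma adjusted p = 0.036). Its cytosolic counterpart Aldh1l1 read 90.5 in K6 and 536 in K5 with halofuginone, against 3500 in K6 and 5740 in K5 control cells, a fall of 22.2-fold (adjusted p = 0.037). The folate enzymes of the cytosol and the mitochondrion thus moved in opposite directions in both lines. Aldh18a1, which makes the proline precursor pyrroline-5-carboxylate, rose by 5.14-fold (adjusted p = 0.038). Aldh4a1, which oxidises the semialdehyde in equilibrium with that intermediate during proline breakdown, fell by 3.8-fold (adjusted p = 0.042).

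Aldh9a1, of carnitine and polyamine aldehydes, had a log2 change of -1.76 (limma adjusted p = 0.051) and Aldh5a1, of succinic semialdehyde, was at least 5.46-fold lower in K6, where the halofuginone array was dim, and 3.4-fold lower in K5 (0.053). Aldh7a1, of lysine breakdown, had -1.29, Aldh16a1 -1.20, Aldh6a1, of valine breakdown, -0.84 and Aldh3b3 -0.48, none past the threshold. Aldh8a1 was not tested.

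Among aldehyde reductases and oxidases, 6 of 13 tested genes fell and 0 rose (5.08% and 3.88% of all tested genes). The median change of the list was -1.66. The genes that fell were Akr1b10 (log2 change -3.17), Akr1c19 (-2.35), Cbr1 (-2.28), Cbr3 (-2.12), Aox1 (-1.66) and Akr1b8 (-1.49), which reduce or oxidise aldehydes and ketones. Limma adjusted p ranged over 0.036 to 0.050. Several of the aldo-keto reductases are near-identical copies, so their probes may share signal. Akr7a5 and Akr1b3 had changes of -1.71 and -0.70 that did not pass. Xdh was dim in K6 and 8.53-fold lower in K5 (adjusted p over both lines 0.061).

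The alcohol and retinol dehydrogenases, a list that mixed enzymes making retinaldehyde with enzymes reducing it, showed no common direction as a whole. Makers and reducers were not compared. Of 14 tested alcohol and retinol dehydrogenases 1 rose and 0 fell (3.88% and 5.08% of all tested genes), with a median change of -0.16. Dhrs9, a retinol dehydrogenase, was dim on both control arrays and rose by at least 6.75-fold in K6 and at least 3.89-fold in K5 (limma adjusted p = 0.047). Dhrs3, which reduces retinaldehyde back to retinol and responds to retinoic acid, had a change of -6.88 in K6 and -1.70 in K5 (adjusted p = 0.12). Rdh11 and Rdh5 had changes of -1.31 and 1.16 that did not pass.

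From the list of retinoic acid binding, breakdown and response, which also held genes of retinol transport, the genes named here did not pass the test. Rbp4, the plasma retinol carrier, had a log2 change of -1.54 (limma adjusted p = 0.052). Rarb, a receptor gene induced by retinoic acid, had -0.99 (0.21), and Stra6, the retinol importer, had 0.88 (0.11).

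The list of NRF2 and its partners also held target genes of NRF2, among them Gclc, Gclm, Nqo1 and Srxn1. Of its 12 tested genes, 1 rose and 0 fell (3.88% and 5.08% of all tested genes). The median change over partners and targets together was 0.10. Mafk, a small MAF partner of NRF2, rose by 2.52 on the log2 scale (limma adjusted p = 0.047). Nfe2l2, which encodes NRF2, had a change of 0.34 (0.42). Gclc had -1.38 (0.068) and Maff 1.21 (0.25), and these did not pass. Nqo1 was dim in K6 and 3.31-fold lower in K5 (adjusted p over both lines 0.16).

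Of 12 tested genes of aldehyde sources, 1 rose and 2 fell (3.88% and 5.08% of all tested genes), with a median change of -0.22. Hacl1, which releases aldehydes from 2-hydroxy fatty acids, fell by 3.29 on the log2 scale (limma adjusted p = 0.036), and Fa2h, which makes those acids, fell by 1.81 (0.047). Smox, which oxidises spermine and releases an aldehyde, rose by 2.32 (0.043). Maob, an amine oxidase, was at least 25.3-fold lower in K6, where the halofuginone array was dim, and 7.87-fold lower in K5 (adjusted p over both lines 0.060). Gstz1 and Sgpl1 had -1.28 and 0.89, which did not pass.

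**Figure D4:**
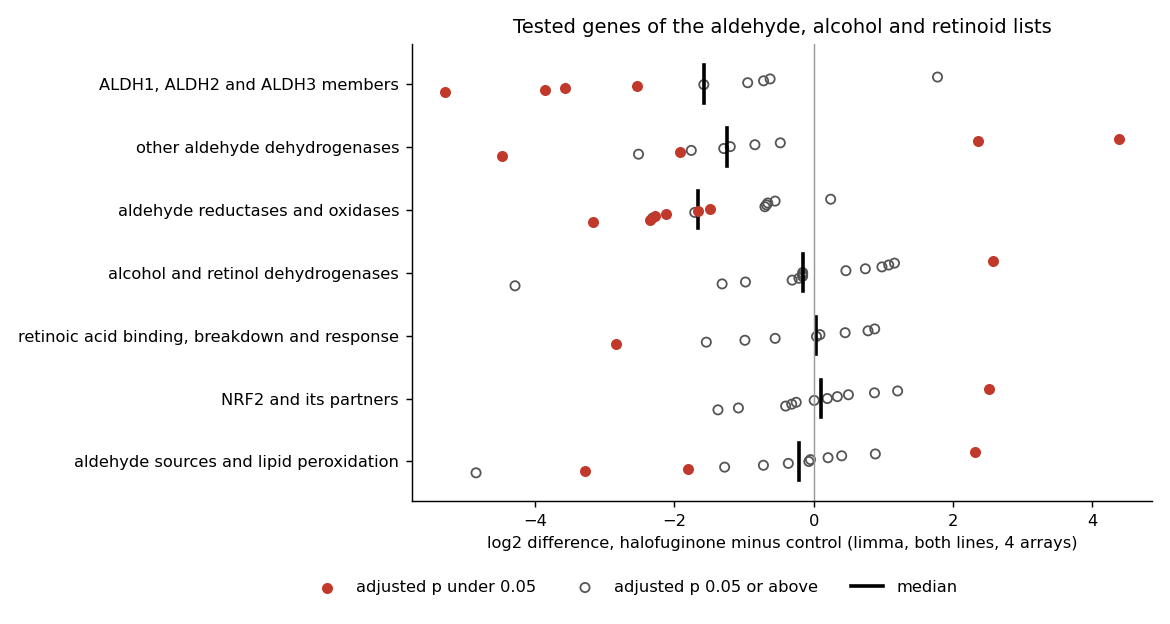
Log2 difference, halofuginone minus control, of each tested gene in 7 lists, from the limma fit over both lines. Filled points had an adjusted p under 0.05 and black bars are medians. The medians of the ALDH1, ALDH2 and ALDH3 genes, the other aldehyde dehydrogenases and the reductases lie at -1.58 (-0.95 with dim values raised to a common limit), -1.25 and -1.66, and those of the other lists between -0.22 and 0.10.

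The genes with the pattern nearest to Aldh3a1 over the 4 arrays, by Euclidean distance after centring each gene, were Slc44a3 (0.15), 4930415C11Rik (0.25), Spata24 (0.27), Cpt1c (0.30) and Clybl (0.32). Their changes were -1.83 to -2.43 in K6 and -2.51 to -3.14 in K5. Nearest to Aldh1a1 were Omd (0.21), Lgr5 (0.39), Gprin3 (0.39), Efcab12 (0.41) and Cyp2c40 (0.42), with changes of -3.72 to -4.62 in K6 and -2.92 to -3.85 in K5. With 4 arrays, many genes can come this near.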

How the data were processed

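Total RNA of 4 cell samples was hybridised to 1-colour (Cy3) mouse arrays on 1 slide. The deposited processed signal intensity was background-subtracted within each array with Feature Extraction 10.7.1.1, per the file headers, while the submitters' processing notes name Agilent Feature Extraction 9.5.1.1. No normalization between arrays was applied to it. Probe positions are in mm9, per the file headers. The authors' deposited value table of intensities, with no normalization step stated, served as an alternative. Its 4 columns share a median of 32.97434, and each correlated best with its own array (r of 0.9989 to 0.9997).

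Processed signals were put on the log2 scale and the 75th percentile over all spots of the same array other than controls was subtracted. A total of 3 spot sets were tried for that percentile, and this one was chosen after their values were seen, to follow an earlier processing of these files. Both others are given among the alternatives. Control and outlier spots were left out before spots of a probe were averaged, which dropped 301 probes. A gene was read at its brightest probe and tested when that was well above background on at least 2 of 4 arrays. Tests used limma 3.58.1 in R 4.3.3 (lmFit, eBayes; prior degrees of freedom 2.97), with figures and sequences from Python 3.11.15 and Biopython 1.88, and the fit was tested on simulated data. The line pairs the arrays, since the number in a label names the line, and the K6 minus K5 differences correlated at 0.50 across genes between control and halofuginone. The members and lists were chosen with earlier results of these data known. The text names all members, every other aldehyde dehydrogenase, the called genes and up to 3 more of each other list, and the 5 genes nearest to Aldh3a1 and Aldh1a1. A gene of the retinoic acid list is not reported here. No spot was saturated (0 on each array), and the number of arrays limits the precision.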

Additional observations from a re-analysis of the deposited data

Results flagged for a closer look

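The distal probe of Aldh3a2 was singled out because it carried signal outside the gene-level test. It was at least 3.5-fold higher with halofuginone than in control cells in K6, and it was well above background on no other array. Of 56304 probes, 2176 were well above background on the K6 halofuginone array only, and 163 of these (7.49%) had a bound at least this high, which is 0.289% of all probes. On the K5 halofuginone array 1288 probes stood alone, 130 of them (10.1%) with such a bound. This is 1 spot on 1 array with no replicate, and a cause was not tested.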

How the results depend on the processing

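Of 14 other settings, the count of 4 lower members fell to 0 under 4: scaling on probes well above background on all arrays, no filter on dim probes, dim values raised to 1 common limit, and no line as replicate block. For Aldh3a1 these gave log2 changes of -2.66 (adjusted p = 0.056), -2.53 (0.067), -2.53 (0.11) and, without the replicate block, -2.53 (0.19). At an unadjusted p under 0.05 they had 6, 6, 5 and 5 members, where 33.9%, 40.8%, 30.7% and 23.5% of all genes tested passed the same limit, and limma called 0 genes in all under each. The cause was not tested. The first setting moved the median change of all genes by -0.12 and the second by -0.35. Under the other 10 settings, which include both other spot sets, the lower members numbered 4 or 5. With the filter on all arrays, Aldh1a7 was no longer tested and Aldh2 was called in its place. All genes called lower numbered 970, against 978 without outlier spots, 1063 over averaged probes, 1493 with median centring, 2103 with the filter on all arrays, 2161 with trend, 2853 with normexp and 560 with each probe as a row. The count of higher members was 1 (Aldh1a3) with normexp and with the filter on all arrays. The count of members lower in K6 than in K5 was 3 with normexp (Aldh1a3, Aldh3a1 and Aldh3b1). Leaving out 1 line gave Aldh3a1 changes of -2.88 to -2.18. The K6 minus K5 difference of Aldh1a1 reversed to -0.221 without control arrays. That of Aldh1a7 reversed to 0.0899 with the common limit and to 0.18 without halofuginone arrays. Signal over background limits Aldh1a2, Aldh1b1, Aldh1a7 and Aldh3b2.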
